A study of Homo sapiens with 6 samples.

Results

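The 10 genes described here, of calcium buffering, pumping and store release, were measured in EndoCBH1 (EndoC-βH1), an established human beta cell line, after siRNA against the homeobox transcription factor gene MNX1. The genes encode a cytosolic calcium-binding protein (SCGN), 2 Golgi calcium-binding proteins (NUCB1 and NUCB2), 2 pumps of the endoplasmic reticulum (ATP2A2 and ATP2A3), 2 pumps of the plasma membrane (ATP2B1 and ATP2B4), the sensor and the pore of store-operated entry (STIM1 and ORAI1) and a release channel (ITPR3). They were taken by symbol, and all 10 were found among the 16792 genes of the deposited table. They had been chosen by gene symbol with their normalized counts in siMNX1 and siNT libraries already known. Their differences between these groups are therefore given as a description, and no p-value is attached to them.

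There were 3 siMNX1 libraries, whose genotype is labelled MNX1 knock down, and 3 siNT libraries, whose genotype is labelled WT and whose cells had received the control siRNA. All 6 libraries come from 1 cell line, and the labels give neither the siRNA sequences, the time after transfection nor whether replicates were separate cultures. p-values therefore describe only how these libraries vary, and that variation may be technical. The targeted transcript had 1885, 1708 and 1751 normalized counts in siMNX1 replicates 1 to 3, against 2039, 2033 and 1988 in siNT replicates 1 to 3. It was lower in 3 of 3 siMNX1 libraries, with a mean of 0.882 of the siNT mean (log2 difference -0.18). Of all genes, 12.1% likewise had every siMNX1 library below every siNT library. Limma gave an adjusted p = 0.116 for MNX1, above the threshold of 0.05, so a knockdown at the RNA level was not established here. Whether the differences described below follow from a loss of MNX1 was not tested.

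Cytosolic calcium couples glucose metabolism to insulin release in beta cells. Calcium enters through voltage-gated channels, triggers exocytosis, and is then removed by pumps of the plasma membrane (the PMCA family, ATP2B genes) or returned to the endoplasmic reticulum by the SERCA family (ATP2A genes). Inositol trisphosphate receptors (ITPR genes) release the stored calcium, and STIM1 senses the emptying of the store and opens ORAI1 in the plasma membrane. Buffers and sensors with EF-hand domains, such as secretagogin from SCGN, bind calcium in the cytosol or in the secretory pathway.

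Upstream sequences are shown for 3 genes, picked after their values were seen: SCGN and the store-release gene ITPR1, which were higher in siMNX1 libraries, and ATP2A2, whose groups overlapped. They lie before the start of each gene on the plus strand and were read from the RefSeq promoter table (GRCh38.p14), without bases that GENCODE 29 places inside the gene. Homeobox factors commonly bind a core of TAAT, which was searched on both strands (TAAT or ATTA, overlaps allowed), and matches are in capitals. The windows are chr6:25651965-25652200 for SCGN, chr3:4493098-4493344 for ITPR1 and chr12:110280366-110280615 for ATP2A2.
SCGN: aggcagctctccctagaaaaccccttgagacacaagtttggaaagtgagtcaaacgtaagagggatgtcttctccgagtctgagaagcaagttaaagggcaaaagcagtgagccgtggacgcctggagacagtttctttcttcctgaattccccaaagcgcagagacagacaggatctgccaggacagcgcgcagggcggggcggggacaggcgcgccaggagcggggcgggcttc
ITPR1: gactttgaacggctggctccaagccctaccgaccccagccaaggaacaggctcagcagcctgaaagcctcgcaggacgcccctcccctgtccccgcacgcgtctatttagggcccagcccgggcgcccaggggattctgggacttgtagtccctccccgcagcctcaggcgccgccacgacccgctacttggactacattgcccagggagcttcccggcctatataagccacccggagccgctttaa
ATP2A2: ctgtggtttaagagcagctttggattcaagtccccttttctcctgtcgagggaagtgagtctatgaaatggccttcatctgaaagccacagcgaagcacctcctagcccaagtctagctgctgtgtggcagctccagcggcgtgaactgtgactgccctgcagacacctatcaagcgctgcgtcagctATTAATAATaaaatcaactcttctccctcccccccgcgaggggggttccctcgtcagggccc
The SCGN and ITPR1 windows held 0 matches and the ATP2A2 window shown held 3, which overlap each other in 1 run. The other ATP2A2 window of the promoter table, chr12:110280997-110281246, is not shown and held 0. The promoter table had entries for 8 of the 10 genes, all but ATP2A3 and ORAI1, with 14 windows. Of those 14 windows, 4 held the core in the 250 bases before the start, in ATP2A2, ATP2B1, ATP2B4 and NUCB2, and 0 held TAATTA. Among all 35116 promoters of the table, 47.4% held the core and 4.35% held TAATTA. A match describes letters in the window and not binding.

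Both groups carried RNA of beta cell markers. All 13 fixed beta cell markers were measured in every library, led by INS, and their summed level ran from 174540 to 186524 normalized counts in siMNX1 libraries and from 166290 to 173241 in siNT libraries. Without INS the sum ran from 55394 to 56353 in siMNX1 libraries and from 58650 to 61557 in siNT libraries, and 9 of the 13 log2 differences were below 0. MAFA and PCSK1 were higher and G6PC2 was lower in siMNX1 libraries (log2 differences of 0.56, 0.40 and -0.36, limma, adjusted p = 0.0131, 0.0216 and 0.00855), while INS did not pass (log2 difference 0.18, limma, adjusted p = 0.0656). The MAFA call ended without siMNX1 replicate 1 or siNT replicate 2 or 3 (limma, adjusted p of up to 0.0699), and the PCSK1 call without siMNX1 replicate 1 or any 1 siNT library (up to 0.108). The G6PC2 call was kept without any 1 library. Of 11 markers of acinar, ductal, stromal, endothelial and immune cells, 4 (CPA1, KRT19, KRT7 and COL1A1) were measured, and the others were not analysed here. Their sum ran from 1937 to 2046 in siMNX1 libraries and from 1776 to 1864 in siNT libraries, and its part in the results was not tested. KRT19 (means of 1367 and 1199, siMNX1 and siNT) and CPA1 (585 and 591) stood above the beta cell markers MAFA (519 and 354) and NKX6-1 (102 and 108). KRT7 and COL1A1 stood below both. In bulk RNA, fewer cells that express a gene and less RNA per cell cannot be told apart.

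Of the 10 genes, 3 passed the threshold in the fit across all genes as higher in siMNX1 libraries and 0 as lower. The threshold was an adjusted p of 0.05 from limma. Of all genes tested, 1.99% passed it as higher and 1.33% as lower, 3.32% in all. The same 3 genes were the only ones of the 10 whose groups did not overlap, as was the case for 24% of all genes (12% with all siMNX1 libraries above and 12.1% with all below). Since these genes were proposed with this comparison known, nothing is read from either count. The median log2 difference of the 10 genes was 0.09, beside a median of -0.0004 over all genes.

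**Figure D1:**
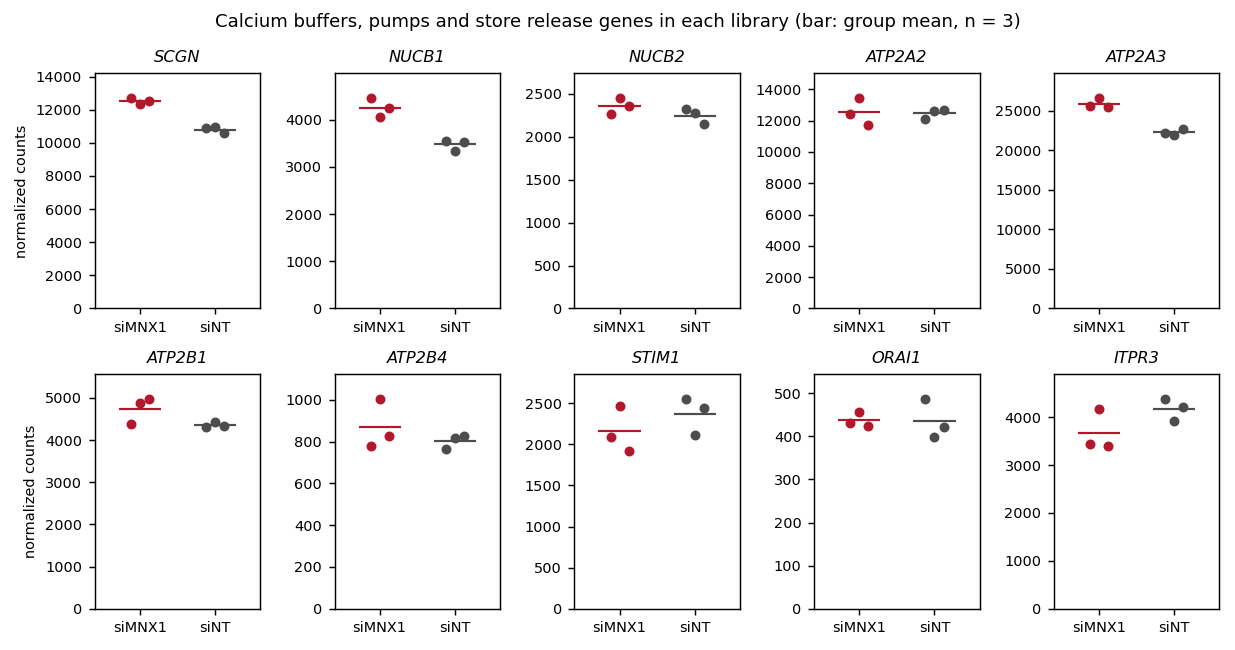
Normalized counts of each of the 10 genes in each library, with siMNX1 libraries left of siNT libraries, points for libraries and bars for group means (n = 3 each); axes start at 0. SCGN, NUCB1 and ATP2A3 have every siMNX1 point above every siNT point, while the groups overlap for the other 7 genes.

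SCGN (chromosome 6, 25652201 to 25701783, plus strand, GRCh38) encodes secretagogin, an EF-hand protein that is abundant in islet and other neuroendocrine cells. It had 12677, 12328 and 12538 normalized counts in siMNX1 replicates 1 to 3, against 10872, 10927 and 10582 in siNT replicates 1 to 3. The groups were far apart relative to their spread, with means of 12514 ± 175 and 10794 ± 186 (siMNX1 and siNT, SD, n = 3 each). SCGN was 15.9% higher in siMNX1 libraries, a log2 difference of 0.21 (95% interval 0.13 to 0.30). Without single libraries the log2 difference lay between 0.20 and 0.22, and the threshold was then passed only when siMNX1 replicate 2 was the library left out.

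NUCB1 (chromosome 19, 48900050 to 48923372, plus strand) encodes nucleobindin 1, a calcium-binding protein of the Golgi lumen. It had 4450.1, 4059 and 4243 normalized counts in siMNX1 replicates 1 to 3, against 3553, 3341 and 3536 in siNT replicates 1 to 3. The lowest siMNX1 library exceeded the highest siNT library, and the log2 difference of 0.29 (95% interval 0.17 to 0.41) was the largest of the 10. It lay between 0.26 and 0.32 without single libraries. The threshold was no longer passed without siMNX1 replicate 1, siMNX1 replicate 3, siNT replicate 2 or siNT replicate 3 (log2 differences of 0.26, 0.29, 0.26 and 0.30).

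NUCB2 (chromosome 11, 17208153 to 17349980, plus strand) encodes the related nucleobindin 2, the precursor of nesfatin-1. Its values were 2264, 2446 and 2364 normalized counts in siMNX1 replicates 1 to 3, against 2318, 2276 and 2147 in siNT replicates 1 to 3. These groups overlapped, and the log2 difference was 0.07 (95% interval -0.05 to 0.19). A pseudogene transcript, ENSG00000197149, lies within NUCB2 on the same strand, at 204 ± 19.3 and 182 ± 5.47 normalized counts (siMNX1 and siNT, SD, n = 3 each).

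Of the SERCA pumps, ATP2A3 separated the groups and ATP2A2 did not. ATP2A3 (chromosome 17, 3923870 to 3964464, minus strand), which encodes SERCA3, had 25627, 26587 and 25465 normalized counts in siMNX1 replicates 1 to 3, against 22169, 21954 and 22757 in siNT replicates 1 to 3. It was 16.1% higher in siMNX1 libraries with no overlap between the groups, a log2 difference of 0.22 (95% interval 0.13 to 0.30). The threshold was not passed without siMNX1 replicate 1 or without any 1 of the siNT libraries, where the log2 difference was 0.22 and, for siNT replicates 1 to 3, 0.21, 0.20 and 0.23.

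ATP2A2 (chromosome 12, 110280756 to 110351093, plus strand) encodes the widely expressed SERCA2. It had 12419, 13413 and 11729 normalized counts in siMNX1 replicates 1 to 3, against 12086, 12603 and 12689 in siNT replicates 1 to 3. The siNT values fell inside the range of the siMNX1 values, and the log2 difference was 0.01 (95% interval -0.11 to 0.12). Its sign was negative under quantile normalization (-0.01), without siMNX1 replicate 2 (-0.05) and without siNT replicate 1 (-0.02).

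The plasma membrane pumps showed small positive differences inside their spread. ATP2B1 (chromosome 12, 89588049 to 89709300, minus strand), which encodes PMCA1, had 4369, 4887 and 4978 normalized counts in siMNX1 replicates 1 to 3, against 4298, 4434 and 4326 in siNT replicates 1 to 3. Its log2 difference was 0.12 (95% interval -0.004 to 0.25), and siMNX1 replicate 1 lay within the siNT range. The antisense transcript ATP2B1-AS1 overlaps the gene, at 159 ± 11.2 and 111 ± 9.55 normalized counts (siMNX1 and siNT, SD, n = 3 each). How the counting treated strand is unknown here, so reads of the gene and of its antisense partner cannot be told apart.

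ATP2B4 (chromosome 1, 203626561 to 203744081, plus strand), which encodes PMCA4, had 779, 1005 and 825 normalized counts in siMNX1 replicates 1 to 3, against 764, 817 and 827 in siNT replicates 1 to 3. Only siMNX1 replicate 2 lay outside the siNT range on the high side. The log2 difference of 0.11 (95% interval -0.11 to 0.32) was -0.0015 without that library.

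The 2 genes of store-operated entry did not separate the groups. STIM1 (chromosome 11, 3854527 to 4093210, plus strand), the calcium sensor of the endoplasmic reticulum, had 2089, 2466 and 1921 normalized counts in siMNX1 replicates 1 to 3, against 2553, 2107 and 2443 in siNT replicates 1 to 3. Its log2 difference was -0.14 (95% interval -0.36 to 0.08). ORAI1 (chromosome 12, 121626550 to 121642677, plus strand), the pore of the entry channel, had 431, 456 and 424 normalized counts in siMNX1 replicates 1 to 3, against 487, 397 and 421 in siNT replicates 1 to 3. The ORAI1 groups were nearly level, with a log2 difference of 0.01 (95% interval -0.20 to 0.22), whose sign was negative without siMNX1 replicate 2, siNT replicate 2 or siNT replicate 3 (-0.02, -0.05 and -0.01) and under quantile normalization (-0.0018).

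ITPR3 (chromosome 6, 33620365 to 33696574, plus strand), a receptor channel that releases calcium from the store, had 3441, 4171 and 3405 normalized counts in siMNX1 replicates 1 to 3, against 4384, 3924 and 4222 in siNT replicates 1 to 3. The siMNX1 replicates 1 and 3 lay below every siNT library, and siMNX1 replicate 2 lay among them. The log2 difference was -0.19 (95% interval -0.37 to -0.01), the lowest of the 10, and did not pass the threshold with all 6 libraries. Without siMNX1 replicate 2 it was -0.29 and passed, the only 1 of 15 other settings in which it did. The library left out there is the 1 that lay among the siNT values, so nothing is read from that pass. The protein-coding gene UQCC2 overlaps ITPR3 on the opposite strand, with a log2 difference of -0.01.

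The siMNX1 replicate 2 library was the highest of its group for 7 of the 10 genes (NUCB2, ATP2A2, ATP2A3, ATP2B4, STIM1, ORAI1 and ITPR3). Replicates 1 to 3 of siNT were the highest of their group for 5, 2 and 3 of the 10 genes. No such share was computed over all genes, so nothing is read from these counts. The first principal component of all genes, with 29.4% of the variance, separated the groups. On the second, with 20.1%, siMNX1 replicate 2 stood at -31.7 and siMNX1 replicate 1 at 29.4, and the remaining 4 libraries fell within -2.66 to 2.40. The part of this spread in the values above was not tested beyond leaving each library out.

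**Figure D2:**
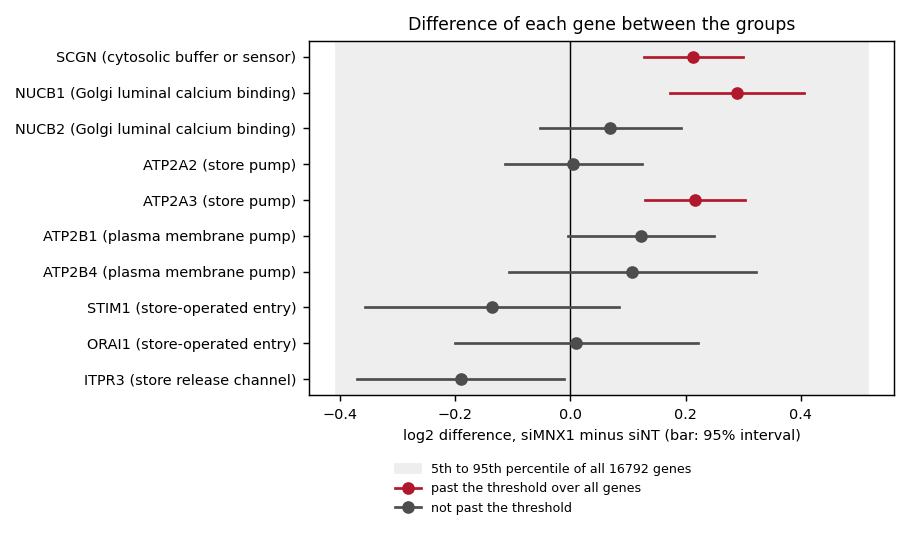
Log2 difference of each of the 10 genes between siMNX1 and siNT libraries (siMNX1 minus siNT, points) with its 95% interval (bars) from the fit across all genes; red marks genes past the threshold and the grey band spans the 5th to 95th percentile of all 16792 genes, from -0.41 to 0.52. All 10 points lie inside that band, from -0.19 for ITPR3 to 0.29 for NUCB1.

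Levels were compared between genes as normalized counts per kb of the longest principal GENCODE transcript. SCGN was the highest at 8648 ± 121 per kb in siMNX1 libraries and 7459 ± 128 per kb in siNT libraries (SD, n = 3 each). ATP2A3 followed at 5539 ± 130 and 4769 ± 88.9 per kb (siMNX1 and siNT), then ATP2A2 at 3058 ± 207 and 3043 ± 79.7 per kb, NUCB1 at 1593 ± 73.4 and 1303 ± 44.2 per kb, and NUCB2 at 1037 ± 40.1 and 988 ± 39.1 per kb. The buffer and the store pumps thus stood above the channels in both groups.

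ATP2B1 had 675 ± 46.8 per kb in siMNX1 libraries and 619 ± 10.2 in siNT libraries, STIM1 had 535 ± 69.2 and 586 ± 57.6, ITPR3 had 372 ± 43.8 and 423 ± 23.7, and ORAI1 had 292 ± 11.2 and 291 ± 31.2. ATP2B4 was the lowest at 97.0 ± 13.3 per kb in siMNX1 libraries and 89.5 ± 3.76 per kb in siNT libraries. ATP2B1 and STIM1 were the only neighbours in this order whose libraries overlapped, and they did so in siNT and not in siMNX1 libraries. With the length of all merged exons in place of the transcript, the middle of the order changed: ATP2A2 and NUCB1 overlapped in siNT libraries, NUCB1 stood above ATP2A2 in siMNX1 libraries, and ITPR3 stood above STIM1 and STIM1 above NUCB2 by their means in both groups. Both of these last pairs overlapped in siMNX1 libraries. Which lengths the authors' quantification used is not known here.

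In 4 gene families, the shares of some members did not overlap between the groups on the same scale per kb. In the STIM and PMCA families all shares overlapped. This is a description, since the counts behind it were known when the genes were chosen. Levels of 24% of all genes did not overlap either, and no such background was computed for shares. ATP2A3 made up 64.3% ± 1.01 of the 3 SERCA transcripts in siMNX1 libraries and 60.9% ± 0.601 in siNT libraries (SD, n = 3 each). ATP2A1, the SERCA of fast skeletal muscle, made up 0.203% ± 0.0575 and 0.256% ± 0.0716 (siMNX1 and siNT). NUCB1 made up 60.6% ± 2.02 of the nucleobindin transcripts in siMNX1 libraries and 56.9% ± 1.42 in siNT libraries, with every siMNX1 library above every siNT library. The lowest siMNX1 share was 58.58% and the highest siNT share was 58.39%.

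Among the 3 inositol trisphosphate receptors, ITPR3 made up 81.7% ± 1.76 in siMNX1 libraries and 86.8% ± 0.730 in siNT libraries, and ITPR1 made up 10.3% ± 1.98 and 6.32% ± 0.488 (siMNX1 and siNT). ITPR3 shares ran from 79.8% to 83.2% in siMNX1 libraries and from 86.0% to 87.3% in siNT libraries. ORAI1 made up 32.6%, 32.8% and 33.6% of the ORAI transcripts in siMNX1 replicates 1 to 3, against 37.3%, 34.4% and 34.7% in siNT replicates 1 to 3, so its shares did not overlap although the ORAI1 levels did. In the PMCA family, ATP2B1 held 85.8% ± 0.403 and 85.7% ± 0.618 (siMNX1 and siNT), which differed by less than the spread between libraries. Over merged exons the levels of the shares changed and the directions did not: ATP2A3 held 80.3% and 77.8%, NUCB1 80.5% and 78.0%, ORAI1 27.0% and 29.1%, and ITPR3 88.8% and 91.5% (siMNX1 and siNT).

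**Figure D3:**
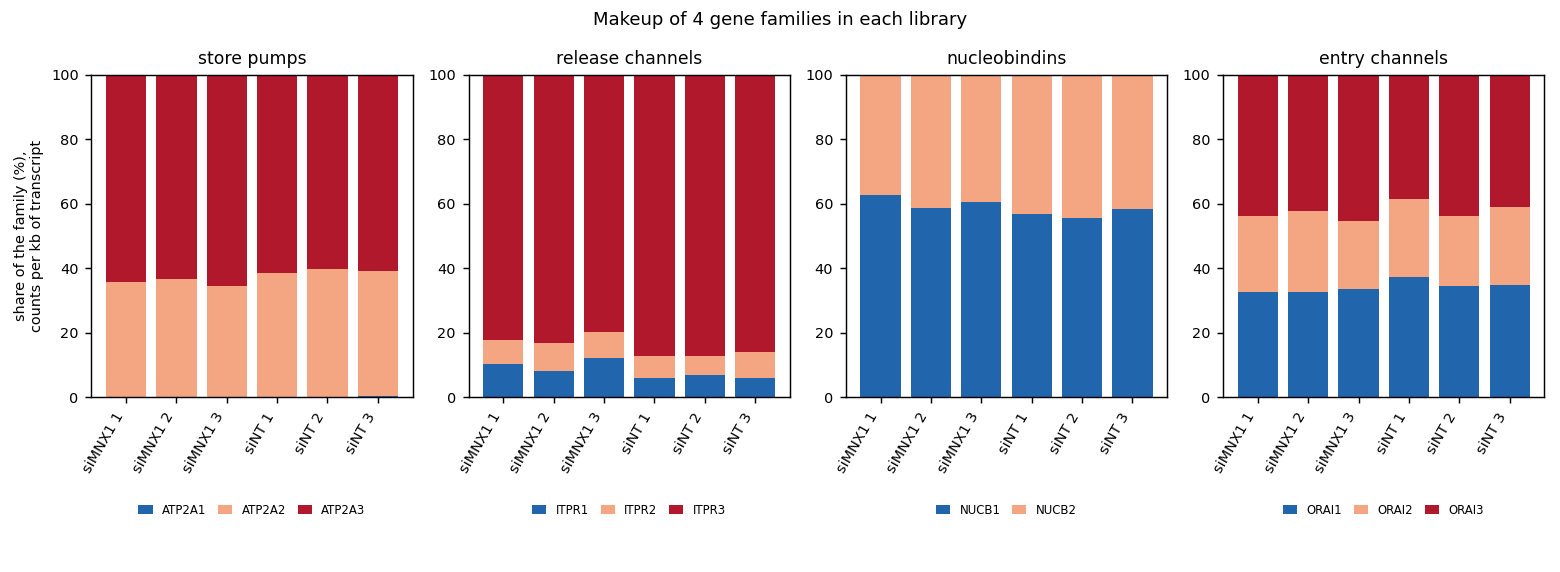
Share of each gene in its family in each library, from normalized counts per kb of transcript, for the SERCA pumps, the inositol trisphosphate receptors, the nucleobindins and the ORAI entry channels, with siMNX1 libraries left of siNT libraries; each bar sums to 100%. The ATP2A3 and NUCB1 shares are larger and the ITPR3 and ORAI1 shares are smaller in the siMNX1 libraries.

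To place the 10 genes in the wider calcium machinery, 173 further genes were listed in 8 groups, and 138 of them were measured. The lists came from general knowledge, but were written with earlier results of these data known. Of these 138 genes 4 were higher and 6 were lower in siMNX1 libraries (limma, adjusted p under the threshold over all genes). That is 7.25% of them, against 3.32% of all genes, and their median log2 difference was -0.006. Since earlier results were known, these shares are a description and not an independent comparison. At an unadjusted p under 0.05, 18 were higher and 20 lower, and over all genes 9.81% were higher and 8.56% lower, the background for the unadjusted counts by group. Genes of higher level passed more often in general: of the 4770 genes with a mean of at least 1000 normalized counts, a level chosen after the values were seen, 5.01% passed, and of the 66 listed calcium genes at that level 5 passed. The 4 that also passed in each of the 15 other settings tried were TMCO1, TPCN1, S100A10 and ASPH.

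**Figure D4:**
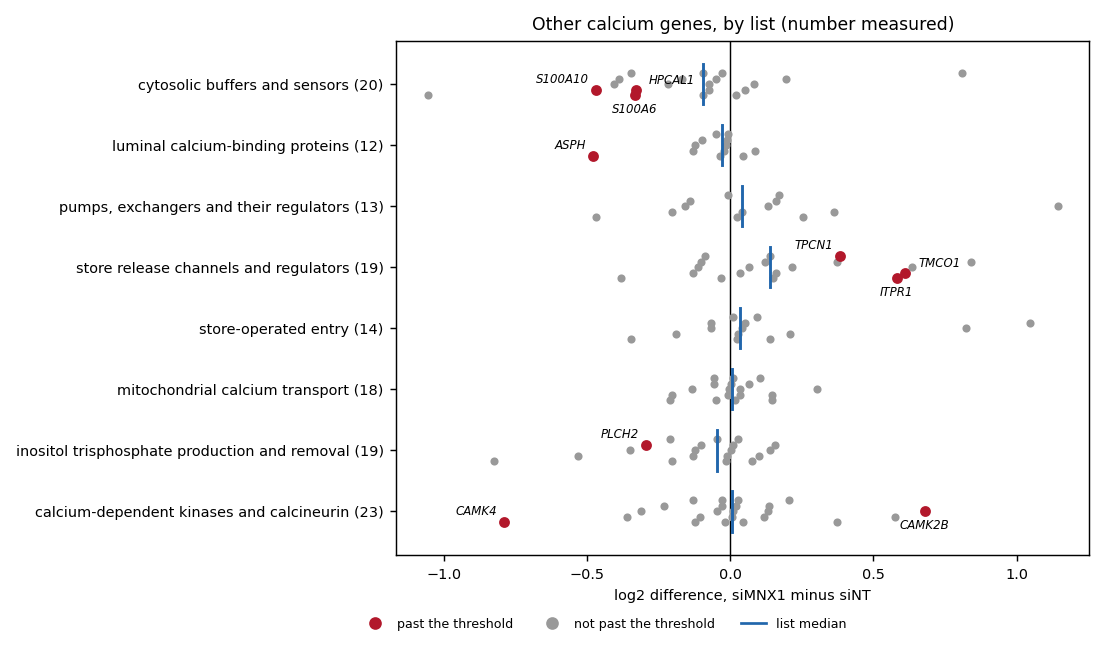
Log2 difference (siMNX1 minus siNT) of each of the 138 other calcium genes, in 8 lists with the number measured in brackets; red points passed the threshold, grey points did not, and blue bars are list medians. The 3 red points among store release genes lie to the right of 0 and the 3 among cytosolic buffers and sensors lie to the left.

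Of 19 measured store release channels and their regulators, 3 were higher and 0 lower by limma, beside 1.99% and 1.33% of all genes. At an unadjusted p under 0.05 from limma, 8 were higher and 1 lower, and the median log2 difference was 0.14. Since the list was written with earlier results known, nothing is read from the direction of these calls. TMCO1 (chromosome 1, 165724293 to 165827755, minus strand), an endoplasmic reticulum protein described as a channel that opens when the store is overfull, had 2662, 2696 and 2595 normalized counts in siMNX1 replicates 1 to 3, against 1804, 1746 and 1655 in siNT replicates 1 to 3. It rose 1.53-fold (log2 difference 0.61, SE 0.0531, limma, adjusted p = 0.000343). UCK2 and TMCO1-AS1 overlap TMCO1 on the opposite strand, with log2 differences of -0.02 and 0.55, and neither passed.

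TPCN1 (chromosome 12, 113221050 to 113298585, plus strand), a cation channel of endosomes and lysosomes, had 2266, 2100.0 and 2216 normalized counts in siMNX1 replicates 1 to 3, against 1654, 1642 and 1749 in siNT replicates 1 to 3. It rose by 30.5% (log2 difference 0.38, SE 0.0552, limma, adjusted p = 0.00633), and the overlapping gene IQCD on the opposite strand had a log2 difference of 0.45 that did not pass. ITPR1 (chromosome 3, 4493345 to 4847840, plus strand), a receptor of the same family as ITPR3, had 430.1, 409 and 516 normalized counts in siMNX1 replicates 1 to 3, against 303, 306 and 291 in siNT replicates 1 to 3. ITPR1 rose 1.51-fold (log2 difference 0.58, SE 0.102, limma, adjusted p = 0.0174). Its call ended without siNT replicate 1, 2 or 3 (limma, adjusted p = 0.0551, 0.0601 and 0.0848).

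In the list of cytosolic buffers and sensors, 0 of 20 measured genes were higher and 3 lower by limma, beside 1.99% and 1.33% of all genes. At an unadjusted p under 0.05 from limma 2 were higher and 8 lower. The median log2 difference was -0.09, while SCGN, the buffer described above, was higher. Of the 3 genes only S100A10, which is not itself a calcium binder, passed in all 15 other settings. The list was written with earlier results known, so nothing is read from the direction. S100A10 (chromosome 1, 151982915 to 151994390, minus strand), an S100 protein that pairs with annexin A2 and has lost calcium binding, had 596, 599 and 615 normalized counts in siMNX1 replicates 1 to 3, against 853, 836 and 818 in siNT replicates 1 to 3. It fell to 0.722 of the siNT mean (log2 difference -0.47, SE 0.0635, limma, adjusted p = 0.00456).

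S100A6 (chromosome 1, 153534599 to 153536244, minus strand), or calcyclin, had 938, 923 and 927 normalized counts in siMNX1 replicates 1 to 3, against 1236, 1181 and 1102 in siNT replicates 1 to 3 (log2 difference -0.33, limma, adjusted p = 0.0233). HPCAL1 (chromosome 2, 10302889 to 10427617, plus strand), a neuronal calcium sensor of the hippocalcin family, had 766, 776 and 763 normalized counts in siMNX1 replicates 1 to 3, against 920.0, 1002 and 977 in siNT replicates 1 to 3 (log2 difference -0.33, limma, adjusted p = 0.0238). In both genes the siMNX1 libraries lay close together and below every siNT library. The S100A6 call ended without siMNX1 replicate 1 or 3 (limma, adjusted p = 0.0700 and 0.0644) and without siNT replicate 1 or 2 (0.0869 and 0.0924). The HPCAL1 call ended without siMNX1 replicate 1 or 3 (limma, adjusted p = 0.0744 and 0.0666) and without siNT replicate 2 or 3 (0.102 and 0.112).

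Of 12 luminal calcium-binding proteins, 1 was lower and 0 higher (2 lower and 0 higher at an unadjusted p under 0.05, limma), and the list's median was -0.03. ASPH (chromosome 8, 61500556 to 61714640, minus strand), whose transcripts encode aspartate β-hydroxylase and the calcium-store proteins junctin and junctate, had 8212, 8519 and 7579 normalized counts in siMNX1 replicates 1 to 3, against 11358, 11879 and 10645 in siNT replicates 1 to 3. It fell to 0.718 of the siNT mean (log2 difference -0.48, SE 0.0575, limma, adjusted p = 0.00242). The pseudogene KRT8P3 overlaps ASPH, at 32.3 ± 12.6 and 35.2 ± 2.75 normalized counts (siMNX1 and siNT, SD, n = 3 each). The table is per gene, so which ASPH product the reads came from was not tested.

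Upstream of the receptors, 1 of 19 genes of inositol trisphosphate production and removal was lower and 0 were higher by limma (4 lower and 0 higher at an unadjusted p under 0.05), with a median of -0.05. PLCH2 (chromosome 1, 2425980 to 2505530, plus strand), a phospholipase C of the eta class, had 1830, 1807 and 1873 normalized counts in siMNX1 replicates 1 to 3, against 2357, 2245 and 2153 in siNT replicates 1 to 3 (log2 difference -0.29, limma, adjusted p = 0.0204). Its groups did not overlap. The call ended without siMNX1 replicate 1 and without siNT replicate 1, 2 or 3 (limma, adjusted p = 0.0699, 0.0751, 0.0802 and 0.05001).

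Among 23 calcium-dependent kinases and calcineurin genes, 1 was higher and 1 lower (2 higher and 2 lower at an unadjusted p under 0.05, limma), with a median of 0.007. CAMK4 (chromosome 5, 111223653 to 111494886, plus strand), a nuclear kinase activated by calmodulin, had 366, 474 and 286 normalized counts in siMNX1 replicates 1 to 3, against 630, 661 and 616 in siNT replicates 1 to 3 (log2 difference -0.79, limma, adjusted p = 0.0258). CAMK2B (chromosome 7, 44217150 to 44334577, minus strand), the beta subunit of calmodulin kinase II, had 187, 175 and 196 normalized counts in siMNX1 replicates 1 to 3, against 142, 103 and 106 in siNT replicates 1 to 3 (log2 difference 0.68, limma, adjusted p = 0.0400). Neither gene's groups overlapped, and CAMK4 spread most within the siMNX1 libraries.

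The CAMK4 call ended without siMNX1 replicate 1 or without siNT replicate 1, 2 or 3 (limma, adjusted p = 0.0840, 0.0777, 0.0961 and 0.102). The CAMK2B call was kept only without siNT replicate 1 and ended without any 1 of the other 5 libraries (limma, adjusted p from 0.0628 to 0.150).

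**Figure D5:**
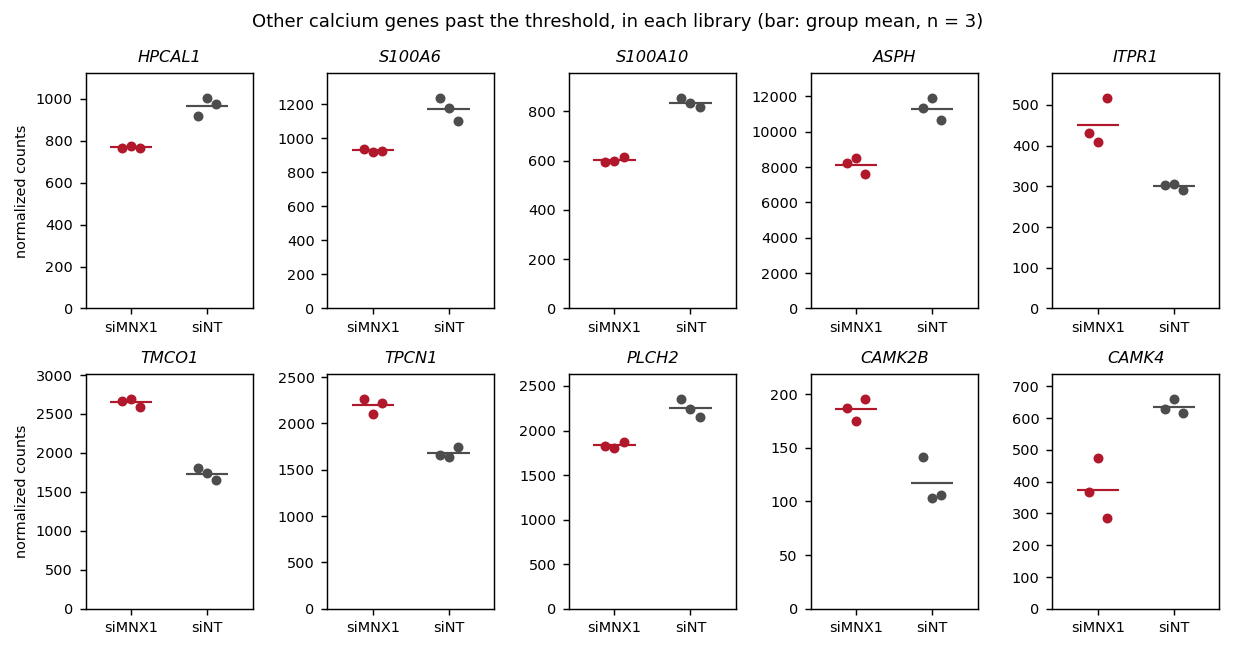
Normalized counts in each library of the 10 other calcium genes that passed the threshold, with siMNX1 libraries left of siNT libraries, points for libraries and bars for group means (n = 3 each); axes start at 0. ITPR1, TMCO1, TPCN1 and CAMK2B are higher and HPCAL1, S100A6, S100A10, ASPH, PLCH2 and CAMK4 are lower in the siMNX1 libraries, with no overlap in any of the 10. These genes were picked by the same comparison, so the lack of overlap adds nothing to it. Of all genes, 24% did not overlap either.

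Limma called 0 genes in the other 3 groups. Of 13 further pumps, exchangers and their regulators, 2 were higher and 1 lower at an unadjusted p under 0.05, and the list's median was 0.04. Its most abundant genes were BSG and NPTN, which encode subunits of the plasma membrane pumps, with log2 differences of 0.02 and -0.01. Of 14 further genes of store-operated entry, 3 were higher and 1 lower at an unadjusted p under 0.05, with a median of 0.03. The tethering protein gene ESYT1 had a log2 difference of -0.19, and SARAF, an inhibitor of store-operated entry, had one of 0.14 (limma, adjusted p = 0.112 and 0.204).

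Of 18 genes of mitochondrial calcium transport, 1 was higher and 1 lower at an unadjusted p under 0.05, and the median was 0.006. The calcium-regulated carrier gene SLC25A13 and the inner membrane gene GHITM had log2 differences of 0.11 and 0.06 (limma, adjusted p = 0.254 and 0.506). The ESYT1 groups did not overlap, nor did those of SARAF, SLC25A13 and GHITM, as was the case for 24% of all genes. In the lists of store-operated entry and mitochondrial transport, 4 of 14 and 4 of 18 genes did not overlap, so nothing is read from this.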

How the data were processed

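RNA from 3 siMNX1 and 3 siNT libraries was analysed, with groups and replicate numbers taken from the sample titles. Per the labels' protocols, Ovation Solo libraries started from 5 ng of RNA, with AnyDeplete removal of ribosomal sequences; the molecule field names polyA RNA. The authors deposited normalized counts for 16792 genes in 1 table, treated here as a non-negative signal. The submitters' processing notes name GRCh38 and, without roles, DESeq, DESeq2 1.26.0, R 3.6.3, RSEM 1.3.1 and STAR 2.7.6a. Annotation release, gene filter and strand handling: not given in the sources used here. Library totals ran from 18436560 to 18704645 in siMNX1 libraries and from 18406479 to 18600819 in siNT libraries. They follow the normalization and are not depths. Among values under 10, at best 25.8% to 47.4% per library were whole multiples of 1 step, with a tolerance of 0.02 reads, so reads were not recovered, no count model was used, and no counting interval is given.

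Values were analysed as log2(value + 1), a scale on which differences of low genes are understated, with limma 3.58.1 (R 4.3.3), a variance trend and Benjamini-Hochberg adjustment over all genes. A minimum mean of 5 removed 0 genes. A run on simulated data of this comparison (16792 genes, 200 of them altered independently) called 12% of the 1.25-fold, 42% of the 1.5-fold and 78% of the 2-fold changes, with 2.61% false calls. It called 0 genes when none was altered. The data gave 558 calls, against 200 altered genes in the run. Recovery depends on that number and was taken over genes of all levels, so it does not give the sensitivity for the 10 genes. No 2 libraries held identical columns. The 10 genes and the lists were chosen with earlier results of these data known. The rule named all 10 genes, MNX1, and in each list up to 6 genes that passed, or else its 2 most abundant genes. Alternatives were other pseudocounts, filters, scalings and variance models, a replicate block, and each library left out. Positions and lengths came from GENCODE 29. Symbols were in the table for 14738 genes, and 417 were added by identifier. Python 3.11.15, numpy 2.4.6, pandas 2.3.3 and matplotlib 3.10.9 were used.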

Additional observations from a re-analysis of the deposited data

How the results depend on the processing

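Other pseudocounts, filters, scalings and a robust variance model kept the calls of SCGN, NUCB1 and ATP2A3 and of the 10 other calcium genes. None of these genes changed sign in any of the 15 settings, and the median log2 difference of all genes lay between -0.0116 and 0.0011. Leaving out single libraries gave 133 to 257 genes higher and 64 to 179 lower among all genes, against 335 and 223 with all 6. It gave 0 to 3 of the 10 genes called higher and 0 to 1 lower, and 2 to 4 higher and 2 to 7 lower of the other calcium genes. By list the counts were 1 to 3 lower for cytosolic buffers and sensors, 1 lower for luminal proteins, 2 to 4 higher for store release, 0 to 1 lower for store-operated entry, 0 to 1 lower for inositol trisphosphate genes, and 0 to 1 higher and 0 to 1 lower for kinases and calcineurin. The remaining counts by list were 0 without any 1 library. The additional genes without siMNX1 replicate 2 were ITPR3 and ESYT1 (lower) and MCOLN3 (higher).

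Same-numbered libraries did not deviate together (correlations of -0.01, -0.01 and -0.04 for numbers 1, 2 and 3). With 3 libraries per group this cannot exclude that equal numbers share a culture, and the labels do not say. With the replicate block 162 genes were higher and 75 lower. The block ended the calls of SCGN, ATP2A3, ITPR1, HPCAL1, S100A6, PLCH2 and CAMK2B, in addition to the losses without single libraries given above. Of the 10 genes 1 was higher, of the other calcium genes 2 were higher and 3 lower, and the lists gave 1 lower for cytosolic buffers and sensors, 0 lower for inositol trisphosphate genes and 0 higher for kinases and calcineurin. The cause was not tested, although the block leaves fewer degrees of freedom. The depth is unknown, so its part in the precision was not tested.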

Other observations

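Further calcium genes, chosen after their values were seen, had no overlap between the groups without passing the threshold. NCS1, a neuronal calcium sensor, had 775, 902 and 863 normalized counts in siMNX1 replicates 1 to 3, against 1134, 968 and 1127 in siNT replicates 1 to 3 (log2 difference -0.35, limma, adjusted p = 0.0621). VDAC1, the main channel of the mitochondrial outer membrane, had 2836 ± 78.3 and 3282 ± 164 normalized counts (siMNX1 and siNT, SD, n = 3 each), with a log2 difference of -0.21 (limma, adjusted p = 0.0674). ORAI3, a relative of ORAI1, had 857, 869 and 844 normalized counts in siMNX1 replicates 1 to 3, against 743, 748 and 732 in siNT replicates 1 to 3, with a log2 difference of 0.21 (limma, adjusted p = 0.100). MCOLN3, a lysosomal channel gene, had 1690, 1344 and 1816 normalized counts in siMNX1 replicates 1 to 3, against 1089, 1296 and 1341 in siNT replicates 1 to 3, and its log2 difference was 0.37 (limma, adjusted p = 0.120). In all, 21 of the 138 other calcium genes had every siMNX1 library above every siNT library and 26 had every one below, beside 12% and 12.1% of all genes. Together that was 47 of 138, beside 24% of all genes. It was 12 of 20 cytosolic buffers and sensors, 8 of 19 store release genes and 7 of 23 kinases and calcineurin genes. It was 5 of 19 inositol trisphosphate genes, 4 of 13 pumps and exchangers and 3 of 12 luminal proteins. The lists were written with earlier results known, so this is a description.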
